A study of Mus musculus with 12 samples.

Results

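MHC class II antigen presentation was followed through 7 genes of the 43346 in the deposited table. The genes were matched by symbol: the class II chains H2-Aa, H2-Ab1 and H2-Eb1, the invariant chain Cd74, the peptide editors H2-DMa and H2-DMb1, and the transactivator Ciita. All 7 passed the filter on low counts, which left 22553 genes for testing. RNA came from brain cross-sections that held hippocampus and cortex, with 4 libraries in each of 3 groups of mice labelled wild type. Young mice were 3 months old, untreated, with the strain label C57BL/6. Old mice were 23 months old, were labelled C57BL/6;SJL-Tg for strain, and from 9 months of age had 0.1% polyethylene glycol in their water as vehicle. Old_CP2 mice shared that age, strain label and vehicle and also received CP2, an inhibitor of mitochondrial complex I, at 25 mg per kg per day from 9 months. Sample titles begin with NTG. The design text speaks of treated APP/PS1 mice, a transgenic Alzheimer model, and of non-transgenic mice. Groups and genotype follow the sample labels here and were not checked beyond them.

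Class II molecules carry peptides from proteins taken up by a cell to its surface, where CD4+ T cells read them. An alpha and a beta chain pair in the endoplasmic reticulum around the invariant chain, which blocks the groove until proteases cut it away, and the DM heterodimer then exchanges its last fragment for other peptides. Ciita binds no DNA itself. It is recruited by factors already sitting on a shared set of promoter elements, and interferon gamma is its best known inducer. In brain the genes are mostly expressed by border-associated macrophages, dendritic cells and, when activated, microglia.

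The shared promoter elements are shown here for the class II genes that have a promoter entry, because they are the sequence feature the gene family has in common. The X box is bound by the RFX complex and the Y box, an inverted CCAAT element, by NF-Y. A search for GNAAC followed after 10 to 40 bases by ATTGG, on both strands, found the pair in 4.87% of 32851 RefSeq promoters of 300 bases (build GRCm38.p6), while GNAAC alone occurred in 84.8% and ATTGG alone in 37.4%. The letters and spacing were chosen after these promoters had been seen. Capitals mark the matched letters, and each sequence is written 5′ to 3′ on the strand of its gene.
H2-Aa (minus strand, chr17:34287859-34287912): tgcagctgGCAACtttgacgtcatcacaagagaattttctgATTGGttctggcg
H2-Eb1 (plus strand, chr17:34305768-34305820): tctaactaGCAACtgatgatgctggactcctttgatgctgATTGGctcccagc
H2-DMb1 (plus strand, chr17:34153089-34153142): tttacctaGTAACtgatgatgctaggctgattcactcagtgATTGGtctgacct
H2-Oa (plus strand, chr17:34092295-34092348): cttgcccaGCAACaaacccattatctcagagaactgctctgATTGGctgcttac
H2-Ob (plus strand, chr17:34238810-34238860): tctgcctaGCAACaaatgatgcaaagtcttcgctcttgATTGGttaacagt
H2-Eb2 (plus strand, chr17:34325535-34325587): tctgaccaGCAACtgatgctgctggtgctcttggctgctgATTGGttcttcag

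The matched pairs were 25 to 28 bases apart in these 6 promoters, and 28 bases apart in H2-Aa, H2-DMb1 and H2-Oa. The pair was not matched on either strand in the entries for H2-DMa and H2-DMb2. Of the H2-DMa entries, 1 begins 9664 and the other 12350 bases upstream of the gene start in the deposited table. The start site of the H2-DMb2 entry lies 1942 bases downstream of its deposited gene start. Neither gene was therefore searched at its deposited start. Of the 7 members, 4 had an entry, and promoters of Cd74, H2-Ab1 and Ciita are not shown.

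On mm10, the build of the deposited table, 5 of the 7 genes lie together on chromosome 17: H2-DMa (ENSMUSG00000037649, from 34135182 to 34139101), H2-DMb1 (ENSMUSG00000079547, from 34153072 to 34160230), H2-Ab1 (ENSMUSG00000073421, from 34263209 to 34269418), H2-Aa (ENSMUSG00000036594, from 34282744 to 34287827) and H2-Eb1 (ENSMUSG00000060586, from 34305877 to 34316199). Cd74 (ENSMUSG00000024610) lies on chromosome 18 from 60803848 to 60812646 and Ciita (ENSMUSG00000022504) on chromosome 16 from 10488178 to 10527564. H2-DMb1 shares 11.2% of the 101-base windows of its transcripts with its neighbour H2-DMb2, so reads may have been assigned between these copies and the values of both are uncertain. Ciita overlaps Dexi on the opposite strand over 329 of 9535 exon bases, and the kit does not mark strand. Dexi had a mean count of 3004 per library, and whether its reads entered the Ciita values was not tested.

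Depth was 70548781 to 99449665 counts per library. Markers of cortical and hippocampal neurons, 8 genes that include Slc17a7 and Camk2a, summed to between 2737 and 4199 CPM, counts scaled to library size, in every library. Markers of the choroid plexus, a tissue inside the ventricles, set libraries apart within groups. The 10 genes summed to between 1219 and 1966 CPM in Young. They summed to 168, 972, 27.9 and 793 CPM in Old 7, 8, 9 and 10, and to 24.6, 837, 786 and 63.7 CPM in Old_CP2 11, 12, 13 and 15. Because these are bulk samples, fewer cells of a type and less RNA per cell cannot be told apart. Nothing in the labels ties 1 library to 1 animal, so p-values measure the spread between libraries, which may be technical. All values are normalised CPM unless RPKM is named.

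The classical chains H2-Aa, H2-Ab1 and H2-Eb1 were low in Young, somewhat higher in Old, and high in 2 of the 4 Old_CP2 libraries. H2-Aa, an alpha chain, was at 0.647, 1.35, 1.24 and 0.301 CPM in Young 1, 3, 4 and 5, at 1.37, 1.98, 3.05 and 2.603 CPM in Old 7, 8, 9 and 10, and at 15.4, 2.55, 2.58 and 6.41 CPM in Old_CP2 11, 12, 13 and 15. All Old values lay above all Young values, and Old_CP2 12 and 13 fell among the Old libraries. H2-Ab1, the beta chain that pairs with H2-Aa, was at 0.802, 1.11, 1.57 and 0.312 CPM in Young, 1.28, 1.88, 1.67 and 1.72 CPM in Old, and 9.10, 1.88, 2.10 and 4.34 CPM in Old_CP2, in the same order of libraries. Its Old_CP2 and Old values met without overlapping, at 1.884 CPM in Old_CP2 12 and 1.882 CPM in Old 8. H2-Eb1, the beta chain of the other class II molecule, was at 0.893, 1.43, 0.958 and 0.669 CPM in Young, 1.14, 1.31, 1.93 and 2.08 CPM in Old, and 11.4, 2.30, 1.995 and 6.42 CPM in Old_CP2. Old overlapped with Young for this gene, and Old_CP2 13 lay below Old 10. Its alpha partner is a pseudogene in the deposited table, H2-Ea-ps, with 1 read in Old 8 and 0 in every other library.

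Cd74, the chaperone of the chains, was at a higher level than they were and, like them, was highest in Old_CP2 11 and 15. It was at 1.84, 3.83, 4.74 and 1.62 CPM in Young, 7.74, 9.998, 5.31 and 7.25 CPM in Old, and 42.6, 6.92, 6.93 and 17.6 CPM in Old_CP2. Old did not overlap with Young, and Old_CP2 12 and 13 lay inside the range of Old. Inside Old its order was not that of H2-Aa: Old 9 was the lowest for Cd74 and the highest for H2-Aa. The peptide editors covered narrower ranges. H2-DMa was at 8.01, 7.15, 8.91 and 8.56 CPM in Young, 7.71, 8.35, 8.82 and 10.3 CPM in Old, and 11.4, 9.14, 10.1 and 9.33 CPM in Old_CP2, with every Old_CP2 library above every Young library. H2-DMb1, its partner, was at 0.621, 1.10, 1.01 and 0.580 CPM in Young, 0.962, 1.46, 1.81 and 1.25 CPM in Old, and 2.79, 2.04, 1.54 and 1.87 CPM in Old_CP2. Here Old overlapped with both other groups, and Old_CP2 did not overlap with Young.

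Ciita, the transactivator, did not share this pattern. It was at 2.45, 1.81, 1.88 and 1.63 CPM in Young, 2.32, 2.59, 1.38 and 1.86 CPM in Old, and 2.31, 1.63, 1.98 and 2.09 CPM in Old_CP2. The 3 groups overlapped throughout, and Old_CP2 11, which ranked first of 12 libraries for each of the other 6 genes, ranked 4 for Ciita.

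**Figure D1:**
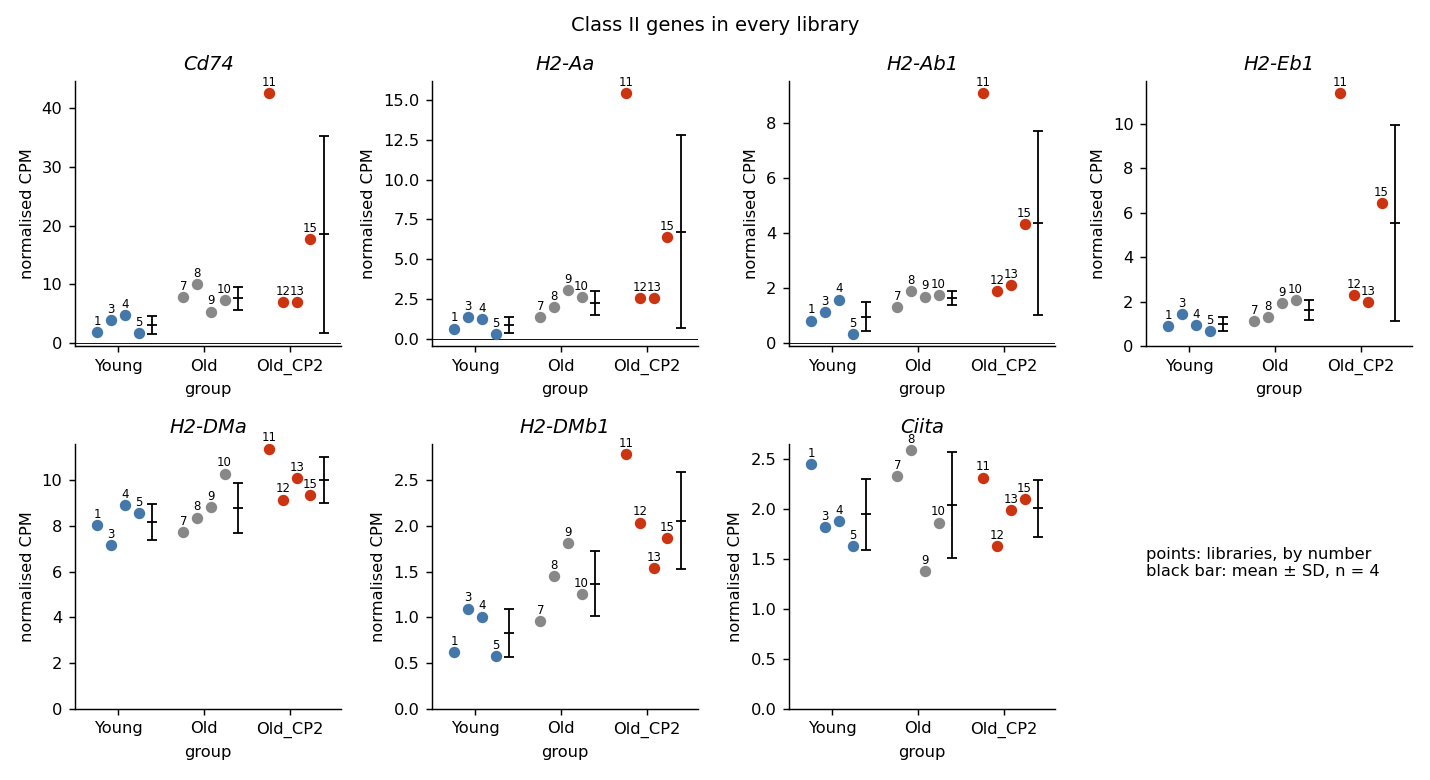
Normalised CPM of the 7 class II genes in each of 12 libraries (points, numbered by replicate), by group, with black bars for the group mean ± SD (n = 4), each panel on its own linear axis. Old_CP2 11 and 15 stand above the other libraries for Cd74 and the 3 classical chains, and the groups overlap for Ciita.

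Levels between genes can be compared only per length, for which the deposited RPKM was used. In Young the order by mean RPKM was H2-DMa (4.04 ± 0.410, SD, n = 4), Cd74 (1.73 ± 0.885), H2-Eb1 (0.677 ± 0.217), H2-Ab1 (0.470 ± 0.264), H2-DMb1 (0.452 ± 0.145), H2-Aa (0.383 ± 0.216) and Ciita (0.300 ± 0.0497). Only H2-DMa and Cd74 were neighbours whose libraries did not overlap. In Old, Cd74 reached the level of H2-DMa (4.35 ± 1.04 and 4.35 ± 0.607 RPKM). H2-Eb1 (1.11 ± 0.329), H2-Aa (0.975 ± 0.315), H2-Ab1 (0.811 ± 0.112) and H2-DMb1 (0.746 ± 0.181) formed an overlapping middle in Old, apart from Cd74 above and from Ciita (0.314 ± 0.0799) below. In Old_CP2, Cd74 led at 11.1 ± 10.1 RPKM, before H2-DMa (5.16 ± 0.509), H2-Eb1 (3.96 ± 3.14), H2-Aa (3.05 ± 2.74), H2-Ab1 (2.26 ± 1.73), H2-DMb1 (1.18 ± 0.299) and Ciita (0.324 ± 0.0468). With spreads of this size, only Ciita lay apart from its neighbour in that order.

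Old against Young sets brain at 23 months beside brain at 3 months, with strain label and vehicle differing as well. The chain genes differ in sequence between mouse strains, and age, strain and vehicle cannot be told apart here. All 7 fold changes were positive and 0 of 7 genes passed the edgeR test at an adjusted p under 0.05, where 6.7% of all tested genes did and 3.96% did so upward. At an unadjusted p under 0.05 there were 3 of 7, against 21.4% of tested genes. Cd74 and H2-Aa had groups that did not overlap, which 13.3% of tested genes had, 6.94% with Old the higher. Cd74 had a mean of 7.57 ± 1.93 CPM in the Old group and 3.01 ± 1.52 CPM in Young (SD, n = 4 each), a log2 fold change of 1.33 ± 0.540 SE (edgeR adjusted p = 0.168). H2-Aa was at 2.25 ± 0.732 and 0.884 ± 0.496 CPM (1.35 ± 0.587, edgeR adjusted p = 0.200), and H2-DMb1, with the smallest p, at 1.37 ± 0.357 and 0.826 ± 0.264 CPM (0.73 ± 0.261, edgeR adjusted p = 0.119). The median log2 fold change of the 7 was 0.73, beside -0.003 over all tested genes. H2-DMa (0.11) and Ciita (0.07) had the smallest values. Fitted on Old and Young alone, Cd74 passed (edgeR adjusted p = 0.0446). With the mean of the choroid plexus markers as a covariate, values were 0.82 for Cd74, 0.57 for H2-Aa, 0.26 for H2-Ab1, 0.0026 for H2-Eb1 and 0.49 for H2-DMb1. This covariate, on a centred log2 scale, ran from 1.18 to 1.70 in Young and reached at most 0.81 in the old libraries. It is therefore bound up with group.

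Old_CP2 against Old bears on the treatment, with age, strain label and vehicle held the same. Again 0 of 7 genes passed the edgeR test, where 0.0443% of tested genes did and 0.0266% did so upward. Fold changes were positive for 6 of 7, and 5 of 7 had an unadjusted p under 0.05, against 6.31% of tested genes. H2-Ab1 alone had groups that did not overlap, by the margin given above, as 3.44% of tested genes had, 1.62% with Old_CP2 the higher. The median of the 7 was 1.29 on the log2 scale, beside 0.002 over all tested genes. H2-Eb1 had the smallest p, at 5.52 ± 4.40 CPM in Old_CP2 and 1.62 ± 0.462 in Old (log2 fold change 1.77 ± 0.474 SE, edgeR adjusted p = 0.391). Values were 1.58 ± 0.555 for H2-Aa (edgeR adjusted p = 0.668), 1.41 ± 0.486 for H2-Ab1 (0.651), 1.29 ± 0.522 for Cd74 (0.730) and 0.59 ± 0.251 for H2-DMb1 (0.740). H2-DMa (0.18, adjusted p = 0.825) and Ciita (-0.02, 0.991) were nearest to 0.

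Single libraries set the size of these differences. Without Old_CP2 11 the log2 fold changes against Old were 0.47 for Cd74, 0.76 for H2-Aa, 0.75 for H2-Ab1, 1.13 for H2-Eb1 and 0.40 for H2-DMb1. Old_CP2 11 and 15, the libraries highest in Cd74 and the classical chains, were also the lowest in choroid plexus markers among the 4 treated ones. Old 9, at 27.9 CPM of those markers, had the lowest Cd74 level in Old, 5.31 CPM, and the highest H2-Aa level there, 3.05 CPM. Without the 4 libraries lowest in choroid plexus markers (Old 7 and 9, Old_CP2 11 and 15), which leaves 2 libraries in each old group, the values were -0.31 for Cd74, 0.16 for H2-Aa, 0.15 for H2-Ab1, 0.34 for H2-Eb1 and 0.41 for H2-DMb1. With all libraries kept and the choroid plexus markers as a covariate, they were 0.81 for Cd74, 1.10 for H2-Aa, 1.06 for H2-Ab1, 1.31 for H2-Eb1 and 0.55 for H2-DMb1. Red blood cell markers, 5 genes, summed to 273, 227.5, 443 and 407 CPM in Old_CP2 11, 12, 13 and 15 and between 81.6 and 147.7 CPM in Old. Of these 5 genes, 2 were called higher in Old_CP2 against Old, where 0.0443% of tested genes were called and 0.0266% were called higher. All 5 had groups that did not overlap, as 3.44% of tested genes had. The part of either marker list in the class II values was not tested.

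**Figure D2:**
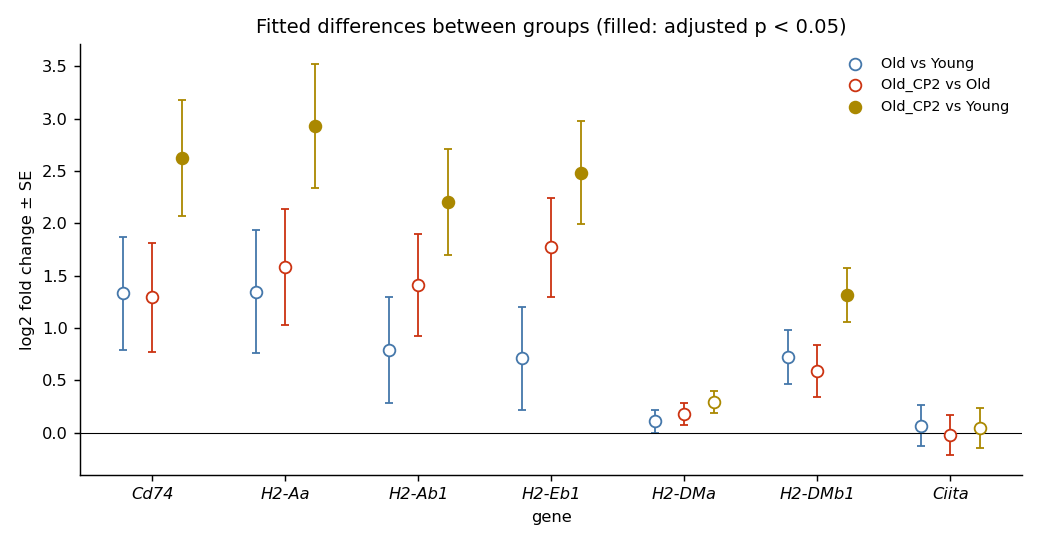
Log2 fold changes of the 7 class II genes in each comparison (points, with bars of 1 SE from edgeR). Filled points passed the adjusted p threshold of 0.05, which 5 genes did in Old_CP2 against Young and 0 did in either other comparison.

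Old_CP2 against Young, which differs in age, strain label, vehicle and treatment and shares its libraries with the comparisons above, gave the calls. Here 5 of 7 genes rose and 0 fell, where 7.57% of tested genes were called and 4.63% were called higher. The groups of 6 of 7 genes did not overlap, as for 15.5% of tested genes, 8.42% with Old_CP2 the higher. The median of the 7 was 2.20, beside -0.008 over all tested genes. H2-Aa rose from 0.884 ± 0.496 to 6.74 ± 6.08 CPM (log2 fold change 2.93 ± 0.596 SE, edgeR adjusted p = 0.0112) and Cd74 from 3.01 ± 1.52 to 18.5 ± 16.8 CPM (2.62 ± 0.553, 0.0133). H2-Eb1 rose by 2.48 ± 0.492 (edgeR adjusted p = 0.00971), H2-Ab1 by 2.20 ± 0.505 (0.0204) and H2-DMb1 by 1.32 ± 0.258 (0.00948). H2-DMa, the level of which was 9.98 ± 1.01 CPM in Old_CP2 and 8.16 ± 0.771 in Young, did not pass (0.29 ± 0.106, edgeR adjusted p = 0.116), nor did Ciita (0.05 ± 0.193, 0.916).

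Without Old_CP2 11, values against Young were 1.80 for Cd74, 2.118 for H2-Aa, 1.85 for H2-Eb1 and 1.14 for H2-DMb1, all still called, and 1.55 for H2-Ab1, which was not (edgeR adjusted p = 0.0614). H2-Ab1 also lost its call without Young 1 (0.0590). Without the 4 libraries lowest in choroid plexus markers 0 of 7 were called, with 1.21 for Cd74, 1.54 for H2-Aa, 1.08 for H2-Ab1, 1.13 for H2-Eb1 and 1.12 for H2-DMb1 (edgeR adjusted p from 0.0552 to 0.188). A covariate made of the choroid plexus markers also left 0 of 7 called, with 1.63 for Cd74, 1.67 for H2-Aa, 1.32 for H2-Ab1, 1.31 for H2-Eb1 and 1.04 for H2-DMb1 (edgeR adjusted p from 0.108 to 0.279). Calls fell over all tested genes as well. They went from 1707 of 22553 to 709 of 23083 without the 4 libraries, and to 336 of 22553 with the covariate, which differs by group as given above. Limma voom called 3 of 7, and Cd74 (limma adjusted p = 0.0510) and H2-Eb1 (0.0554) did not pass there.

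Inside Old_CP2 the 4 libraries spread most for Cd74 and the 3 classical chains. The SD of log2 CPM was 1.26 for Cd74, 1.24 for H2-Aa, 1.20 for H2-Eb1 and 1.05 for H2-Ab1, and between 1.10 and 2.06% of tested genes had a larger one. For H2-DMb1 it was 0.35, with 20.1% of tested genes above it. It was 0.21 for Ciita and 0.14 for H2-DMa, beside a median of 0.14 over all tested genes. In Old the SD of Cd74 was 0.37 and that of H2-Aa 0.50. In Young the SD was 0.76 for Cd74, 0.97 for H2-Aa and 0.96 for H2-Ab1, with 4.19, 1.88 and 1.89% of tested genes above it. A wide spread of these genes was thus not particular to Old_CP2.

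Set against the mean of Old, Old_CP2 11 had 7.04 times the H2-Eb1 level, 6.86 times the H2-Aa level, 5.63 times the Cd74 level and 5.55 times the H2-Ab1 level, but 2.03 times the H2-DMb1, 1.29 times the H2-DMa and 1.13 times the Ciita level. Old_CP2 15 was raised in the same 4 genes at a smaller size, with 3.97 for H2-Eb1, 2.84 for H2-Aa, 2.64 for H2-Ab1 and 2.33 for Cd74, beside 1.37 for H2-DMb1, 1.06 for H2-DMa and 1.03 for Ciita. Old_CP2 12 and 13 were at 0.914 and 0.915 times for Cd74, and at 1.42 and 1.23 times for H2-Eb1. The highest Old_CP2 library exceeded the lowest 6.15-fold for Cd74 and 1.24-fold for H2-DMa.

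**Figure D3:**
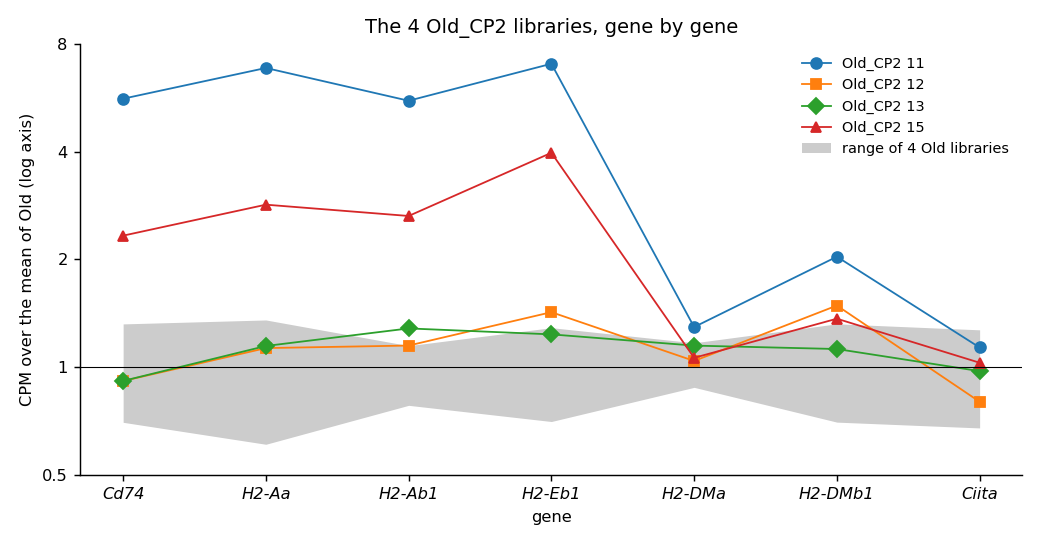
Level of each class II gene in the 4 Old_CP2 libraries divided by the mean of Old, on a log axis, with a line for each library and a grey band for the range of the 4 Old libraries. Old_CP2 11 and 15 lie above the rest for Cd74, H2-Aa, H2-Ab1 and H2-Eb1, and the 4 libraries come together for H2-DMa and Ciita.

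Cd74 and H2-Aa kept 1 ratio across the treated libraries. Cd74 RPKM was 3.57 to 3.67 times H2-Aa RPKM in all 4 Old_CP2 libraries, although the level of each varied about 6-fold there (6.15 and 6.07). The ratio ran from 2.31 in Old 9 to 7.50 in Old 7, and from 3.77 to 7.14 in Young. H2-Eb1 was 1.17 to 1.59 times H2-Aa in Old_CP2, 1.00 to 1.31 times in Old, and up to 3.52 times in Young 5, the library with the least H2-Aa. The ratios of the editors to H2-Aa ran more widely. H2-DMa RPKM was 0.841 times H2-Aa RPKM in Old_CP2 11 and 32.5 times in Young 5, and H2-DMb1 was 0.228 and 2.43 times in the same libraries.

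**Figure D4:**
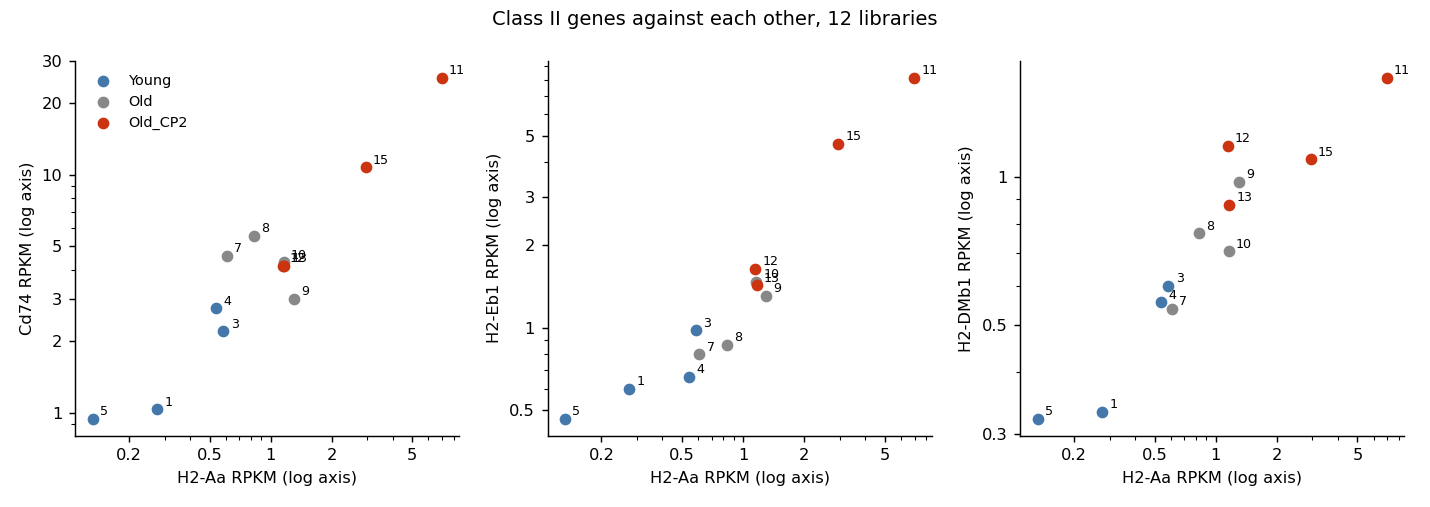
RPKM of Cd74, H2-Eb1 and H2-DMb1 (vertical) against H2-Aa RPKM (horizontal) in 12 libraries, both axes logarithmic, points coloured by group and numbered by replicate. The 4 Old_CP2 libraries keep Cd74 at 3.57 to 3.67 times H2-Aa, while H2-DMb1 climbs less than H2-Aa.

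Of the other class II chains, 4 of 5 were tested. H2-Oa, the alpha chain of the DO heterodimer that restrains DM, rose in Old_CP2 against Young (log2 fold change 1.56, edgeR adjusted p = 0.0443), the only call in this list in any comparison. Over all tested genes, 7.57% were called in Old_CP2 against Young and 4.63% were called higher. H2-Oa was at 1.22, 0.397, 0.390 and 0.607 CPM in Old_CP2 11, 12, 13 and 15 and between 0.156 and 0.288 CPM in Young. How far its call rests on single libraries was not tested. H2-Ob, its partner, followed another order: 1.19, 0.804, 0.781 and 2.602 CPM in Old_CP2, and 2.48 CPM in Old 7. Its highest treated library, Old_CP2 15, also had the highest sum of 7 B cell markers, 4.68 CPM against 2.47 to 2.88 CPM in Old_CP2 11, 12 and 13. In Old it was otherwise: Old 7, highest in H2-Ob, had the lowest B cell sum (2.38 CPM), and Old 9, lowest in H2-Ob at 0.608 CPM, had the highest (3.05 CPM). B cells express DO, and the part of B cells in these values was not tested. H2-DMb2 was at 1.06, 1.06, 0.471 and 0.765 CPM in Old and between 0.282 and 0.843 CPM in Old_CP2 (log2 fold change -0.85, edgeR adjusted p = 0.730).

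Over all tested genes, 6.7% were called in Old against Young and 0.0443% in Old_CP2 against Old. Among 7 genes of class II processing and turnover, 2 rose and 0 fell in Old against Young, and 0 were called in Old_CP2 against Old. Ctss, the protease that trims the invariant chain in its last step, rose by 0.63 (edgeR adjusted p = 0.0120), and March1, a ubiquitin ligase that removes class II from the surface, by 0.23 (0.0377). The same 2 genes were the calls in Old_CP2 against Young (0.70 and 0.44, adjusted p = 0.00605 and 0.00128), where 7.57% of all tested genes were called. Of 10 factors at the X and Y boxes or their coactivators, 0 were called in each comparison, with 0, 0 and 2 at an unadjusted p under 0.05. The share of all tested genes at that p was 21.4, 6.31 and 23.2%. Rfx5, the DNA-binding subunit of RFX, had the smallest p against Young in Old_CP2 (0.18, edgeR adjusted p = 0.0825).

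Of 7 tested genes of the interferon gamma axis, 0 were called in Old against Young or in Old_CP2 against Old. In each, 1 had an unadjusted p under 0.05, beside 21.4 and 6.31% of all tested genes. Ifng itself had 2 reads each in Old 8 and Old 9, 1 in Old_CP2 12, 9 in Old_CP2 15 and 0 elsewhere, Old_CP2 11 included. A count of 0 allows up to 3 reads and covers counting error only.

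Of the genes that face the T cell, 2 of 7 rose and 1 fell in Old against Young, where 6.7% of all tested genes were called. In Old_CP2 against Old 0 were called, with 1 at an unadjusted p under 0.05, beside 6.31% of all tested genes. Lag3, an inhibitory receptor that binds class II, rose by 1.10 (edgeR adjusted p = 0.00188) and Icosl, a costimulatory ligand, by 0.67 (0.00113), while Cd4, the coreceptor for class II, fell (-2.03, 0.0122). In Old_CP2 against Young, Cd86, another costimulatory ligand, was called as well (0.57, adjusted p = 0.0443).

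The class I pathway presents peptides made inside the cell. Of its 11 genes, 3 rose in Old against Young and 7 in Old_CP2 against Young. Over all tested genes, 6.7 and 7.57% were called there. In Old_CP2 against Old 0 were called, with 2 at an unadjusted p under 0.05, beside 6.31% of all tested genes. The peptide transporter gene Tap2 rose by 0.53, the loading chaperone gene Tapbp by 0.30 and the immunoproteasome gene Psmb9 by 0.78 in Old against Young. The summed class I level was 409, 222, 229 and 265.5 CPM in Old_CP2 11, 12, 13 and 15 and between 208 and 243 CPM in Old, so the same libraries led, by a smaller factor than for class II (95.0, 26.5, 27.2 and 48.1 CPM against 22.5 to 27.6).

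Marker sums of cells that can carry class II were set beside these values. In Old_CP2 11, 12, 13 and 15, 10 microglia markers summed to 377, 361, 376 and 353 CPM, 8 border macrophage markers to 27.9, 28.3, 33.6 and 30.02 CPM, and 10 dendritic cell markers to 27.0, 26.6, 25.8 and 28.3 CPM. Old_CP2 11 was the highest of the 4 for microglia and the lowest for border macrophages, and Old_CP2 11 and 15 were the highest for dendritic cells. Apart from microglia in Old_CP2 15, these values lay within the range of Old, which was 356 to 384 CPM, 27.7 to 34.3 CPM and 24.9 to 33.0 CPM in the same order. Activated microglia markers, 9 genes, were at 161, 145, 153 and 179.8 CPM in Old_CP2 11, 12, 13 and 15, beside 149 to 207 CPM in Old. Axl alone had 56.5 CPM out of a mean sum of 160 CPM in Old_CP2. In Old_CP2 against Old, 6 of the 9 had positive fold changes and 0 were called. An unadjusted p under 0.05 was reached by 2, beside 6.31% of all tested genes. These were Itgax (log2 fold change 0.98, edgeR adjusted p = 0.559) and Cst7 (0.97, edgeR adjusted p = 0.692). T cell markers, 8 genes, were at 3.02, 1.99, 2.55 and 3.21 CPM, beside 1.71 to 2.24 CPM in Old, and 5 monocyte markers at 78.2, 68.5, 60.9 and 81.0 CPM, beside 52.5 to 71.7 CPM in Old. Old_CP2 11 and 15 thus had the highest sums of the 4 for activated microglia, T cell and monocyte markers, as they had for the B cell markers given above. Single genes carry much of some sums. In Old_CP2, Fn1 had a mean of 69.3 CPM out of 72.2 CPM for the monocyte list, where Ccr2 had 0.393 CPM. Lck had 1.61 CPM out of 2.69 CPM for the T cell list, where Cd3e had 0.0936 CPM. For the dendritic cell list, Flt3 had 11.69 CPM and Zbtb46 12.11 CPM out of a mean sum of 26.95 CPM in Old_CP2. Xcr1 had 0.105 CPM and Clec9a 0.330 CPM there. Stab1 had 16.05 CPM out of 29.98 CPM for the border macrophage list in Old_CP2. The monocyte, T cell and dendritic cell sums therefore say little about the number of these cells. The border macrophage sum rests in good part on Stab1.

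Several of these sums also differed between Young and Old. In Young they ran from 274.5 to 335 CPM for microglia, with no overlap with Old, and from 19.0 to 29.0 CPM for border macrophages, which overlapped with Old. Meningeal fibroblast markers, 8 genes, summed to 42.9, 75.1, 92.3 and 41.95 CPM in Young 1, 3, 4 and 5, so Young 3 and 4, the highest for Cd74 in that group, were the highest here too. Young 3 and 4 were also the highest in Young for border macrophage (24.3 and 29.0 CPM), monocyte (44.3 and 51.7 CPM) and class I sums (190 and 204 CPM). Fibroblast markers summed to between 97.8 and 150.9 CPM in Old. In Old_CP2 11, 12, 13 and 15 they summed to 117.6, 104.6, 127.5 and 139.9 CPM. Old_CP2 11, the highest for Cd74, thus lay below Old_CP2 13 and 15 here. Of the 8 fibroblast genes, 4 rose in Old against Young and 4 in Old_CP2 against Young. Over all tested genes, 6.7 and 7.57% were called there. In Old_CP2 against Old 0 of the 8 were called, with 0 at an unadjusted p under 0.05, beside 6.31% of all tested genes. No marker in any of these lists was at 0 in all libraries, and the part of these cells in the class II values was not tested.

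**Figure D5:**
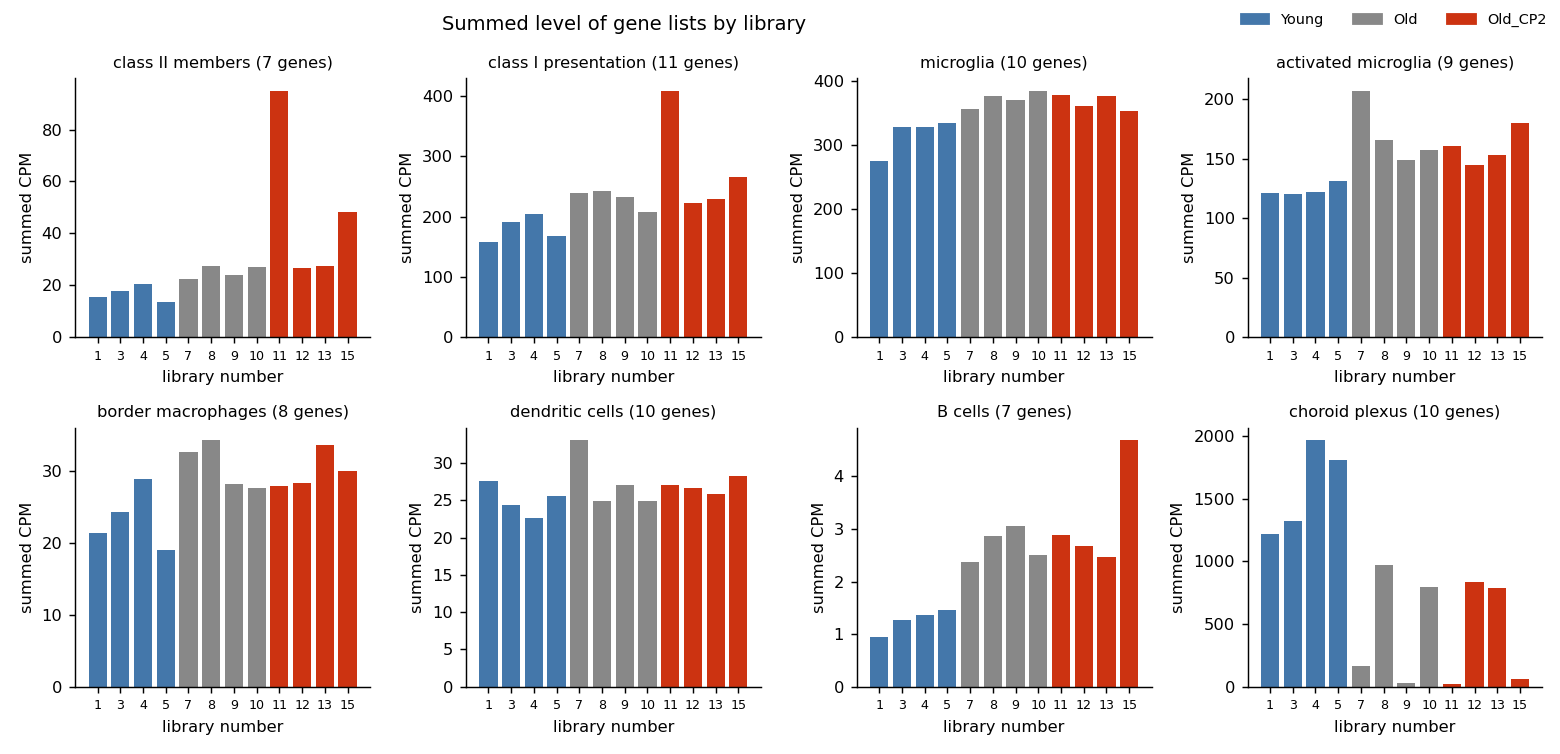
Summed normalised CPM (bar height, from 0) of the class II genes, the class I list and 6 marker lists in each of 12 libraries, coloured by group, each panel on its own axis. Class II sums reach 95.0 CPM in Old_CP2 11 while microglia marker sums stay between 353 and 377 CPM in Old_CP2.

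Genes that varied most like the class II set were ranked over 16688 genes by the correlation of log2 CPM with the mean of Cd74, H2-Aa, H2-Ab1 and H2-Eb1 across 12 libraries, after group means were removed. The values are a description with no test, since the 12 libraries share their groups and 1 library weighs heavily. Psmb8, an immunoproteasome subunit encoded beside the class II genes, came first (Pearson r = 0.970, Spearman rho = 0.986, and r = 0.964 without Old_CP2 11). It was at 6.34, 3.43, 3.23 and 5.08 CPM in Old_CP2 11, 12, 13 and 15. Nlrc5, the transactivator of class I genes and a relative of Ciita, came second (r = 0.913, rho = 0.860, and 0.832 without Old_CP2 11), at 4.39, 1.17, 1.12 and 2.44 CPM. They were followed by Hk3, Lgi2, Ppl, H13, Pkn3, Il21r, Igtp and Zfp114, with r from 0.898 down to 0.834. Igtp, an interferon-inducible GTPase, was at 8.15, 4.34, 4.04 and 6.33 CPM in Old_CP2.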

How the data were processed

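Gene counts and RPKM values came from 1 deposited table. Per the file headers, the count of each gene and library was made by the authors, as were the RPKM values. The counts were whole numbers and came to 79.9 to 85.4% of the read total that the authors' deposited RPKM values imply. Reads were 101 bases long and paired, and bcl2fastq, TopHat, Subread's featureCounts and the mm10 build are named per the submitters' processing notes, with versions not given in the sources.

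The gene test was that of edgeR 4.0.16 (R 4.3.3): filterByExpr by group, TMM, and a quasi-likelihood fit over all 12 libraries with group as the only term, two-sided, adjusted by Benjamini-Hochberg over 22553 genes and called under 0.05. Every adjusted p is from this test unless another tool is named. RPKM served only to compare levels between genes. Alternatives used RLE factors, no filter, DESeq2 1.42.0, limma 3.58.1 voom, only the groups compared, a robust fit, a choroid plexus covariate and libraries left out. Clec7a has 2 entries in the table, and the one with more counts was used.

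The 7 members were named throughout. From each gene list of the pathway, the called genes of a comparison described were named if 4 or fewer, otherwise the 4 of smallest p. Where none was called, up to 2 were named. Cell type markers were given by their summed level, and called genes among them were not all named. The 10 genes most like the class II set had a mean of at least 1 CPM, and 1 gene model without a proper name was passed over. Members and lists were chosen with earlier results of these data known. Further genes given by value, such as H2-Ob, H2-DMb2 and Ifng, were named after their values were seen. A further gene of that naming rule is not reported here.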

Additional observations from a re-analysis of the deposited data

How the results depend on the processing

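Over all alternatives, the 7 genes gave 336 fold changes, of which 311 kept their direction and side of the threshold, 14 lost a call, 1 gained one and 10 changed sign. In Old against Young, 0 members were called in every alternative except the fit on those groups alone, with 1. In Old_CP2 against Old it was 0 to 0 without single libraries and 0 in the other alternatives. In Old_CP2 against Young the 5 calls became 3 with limma voom, 0 with the choroid plexus covariate, 0 without the 4 libraries lowest in choroid plexus markers (an alternative chosen after seeing the data, and one with fewer samples), and 4 to 5 without single libraries. The cause of the changes under voom and the covariate was not tested. Over all tested genes, calls in Old_CP2 against Young went from 1707 to 1764 with voom and to 336 with the covariate. Without those 4 libraries they went to 709. Cd74 reversed to -0.31 in Old_CP2 against Old without those 4 libraries. The other reversals were of Ciita, near 0 throughout. Without single libraries it ran from -0.055 to 0.22 in Old against Young, from -0.17 to 0.11 in Old_CP2 against Old and from -0.027 to 0.18 in Old_CP2 against Young. It was 0.011 with voom in Old_CP2 against Old and -0.095 without the 4 libraries in Old_CP2 against Young. No paired analysis was possible because the groups share no replicate numbers. Depth limits the lowest values most: H2-Aa had 27 counts in Young 5.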
